A study of Mus musculus with 6 samples.

Results

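The mitochondrially encoded genes of left ventricular myocardium were examined in HFpEF mice and chow-fed controls. HFpEF is heart failure with preserved ejection fraction. The genes were taken by name, as every entry of the expression table whose GENCODE symbol begins with mt-, and the rule used no measured value. It gave 37 of 54532 gene identifiers, namely 13 protein genes, 2 rRNA genes and 22 tRNA genes. All male C57BL/6 mice were 6 to 8 weeks old at the start and were kept for 12 weeks. The 3 Chow mice received standard chow and regular water. The 3 HFpEF mice were fed a high-fat diet (60% of calories as fat) and drank water with 0.5 g/L L-NAME, which blocks nitric oxide synthases. Each library came from a distinct mouse, and diet and L-NAME were always given together, so their effects cannot be told apart. The samples are labelled heart, and the study's methods give left ventricular myocardium.

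Mitochondria keep a small circular genome, separate from the chromosomes of the nucleus. It is copied by its own polymerase and transcribed from both strands by POLRMT into long precursors, which are cut largely at the tRNAs that lie between the other genes. Its rRNAs and tRNAs serve the mitochondrial ribosome, which makes only the proteins encoded there. These proteins are core subunits of respiratory complexes I, III, IV and V, whose remaining subunits, like all of complex II, are encoded in the nucleus. Cardiac muscle is packed with mitochondria, and mitochondrial transcripts make up a large part of its RNA. The 13 protein genes are 7 subunits of complex I (mt-Nd1, mt-Nd2, mt-Nd3, mt-Nd4, mt-Nd4l, mt-Nd5 and mt-Nd6), 1 of complex III (mt-Cytb), 3 of complex IV (mt-Co1, mt-Co2 and mt-Co3) and 2 of complex V (mt-Atp6 and mt-Atp8).

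Of these genes, 12 protein genes, both rRNA genes and 14 tRNA genes lie on the annotated plus strand, and mt-Nd6 and 8 tRNA genes lie on the minus strand. Neighbouring protein genes share bases in 4 places, and reads there belong to either gene. The stretches below show 3 of them on the plus strand of chrM in GRCm38, from GENCODE transcripts, with the shared bases in capitals. The mt-Atp8 and mt-Atp6 reading frames share 43 bases (chrM:7927-7969), mt-Nd4l and mt-Nd4 share 7 (chrM:10167-10173), and mt-Nd5 and mt-Nd6, which lie on opposite strands, share 14 (chrM:13552-13565). mt-Atp6 and mt-Co3 share a single base, at position 8607, which is not shown.
mt-Atp8 / mt-Atp6: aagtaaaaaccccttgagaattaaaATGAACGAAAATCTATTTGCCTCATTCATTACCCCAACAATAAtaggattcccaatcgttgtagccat
mt-Nd4l / mt-Nd4: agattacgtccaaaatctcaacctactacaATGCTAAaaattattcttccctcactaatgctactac
mt-Nd5 / mt-Nd6: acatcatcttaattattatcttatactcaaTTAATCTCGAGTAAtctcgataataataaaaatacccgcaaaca
The sources used here do not state whether counting used strand. Without strand, reads of mt-Nd6 cannot be told apart from antisense reads made from the opposite strand at that place.

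Levels are given as FPKM, read fragments scaled to exon length and to a denominator of each library, which allows genes to be compared per length. FPKM values times gene length were whole multiples of 1 read for 96.1% to 96.2% of values above 0 in each library, within a tolerance of 1e-06, and for all such values of the mitochondrially encoded genes. The recovered totals were 13076772 to 15574914 reads in Chow and 13461735 to 16027084 in HFpEF. The FPKM values implied a denominator of 0.897 to 0.914 times the recovered total in Chow. It was 1.03 and 1.06 times in HFpEF 1 and 2, and 1.27 times in HFpEF 3. FPKM in HFpEF 3 is therefore lower relative to Chow than shares of reads would give. HFpEF 3 stood apart from the other libraries. Its median absolute log2 difference over genes was 0.47 to 0.49 from the Chow libraries, against 0.25 to 0.26 for HFpEF 1 and 2. The main results are therefore also given without it. Cardiomyocyte markers were high in every library, with a summed FPKM of 24228 to 25942 in Chow, 17105 and 17772 in HFpEF 1 and 2, and 11575 in HFpEF 3.

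The mitochondrial genome supplied a large part of the reads in control myocardium and a smaller part in HFpEF. The share of reads was 24.5%, 26.0% and 24.0% in Chow 1 to 3, and 22.6%, 20.1% and 7.17% in HFpEF 1 to 3. All HFpEF libraries were below all Chow libraries, and HFpEF 3 was far below the other two. The means were 24.8% ± 1.03 in Chow and 16.6% ± 8.27 in HFpEF (SD, n = 3 each), with p = 0.1 in an exact two-sided permutation test, the smallest p that 3 against 3 libraries allow. Counting error was small beside these differences, since the 95% Wilson binomial interval for HFpEF 3 ran from 7.16% to 7.19%. Without HFpEF 3 the HFpEF mean was 21.3%. As a share of summed FPKM, the same genes took 47.1%, 48.6% and 46.9% in Chow and 46.0%, 41.9% and 19.5% in HFpEF, again without overlap (exact permutation p = 0.1). In bulk tissue, fewer cells of a type and less RNA per cell cannot be told apart, so a share can differ through the other genes of the library as well.

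**Figure D1:**
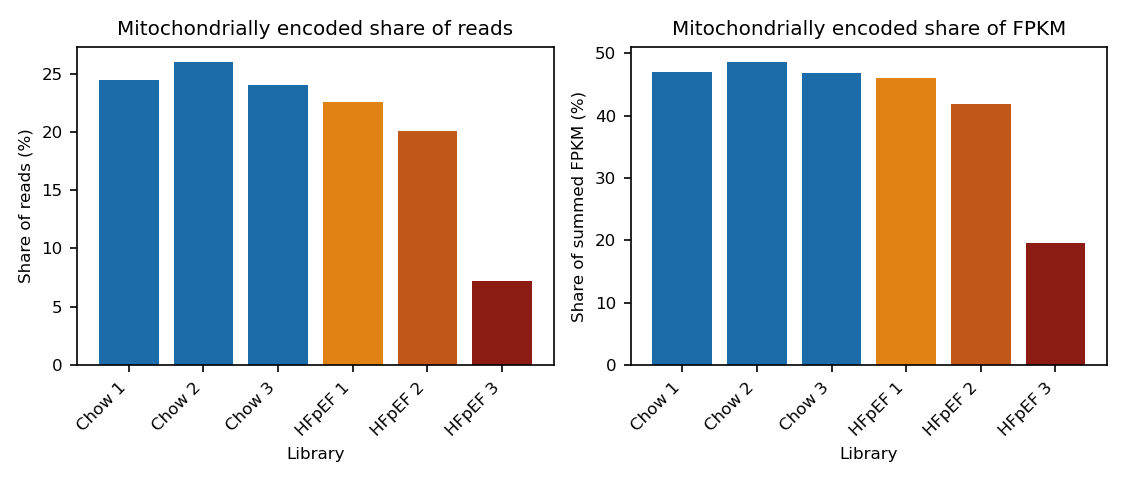
Share of recovered reads (left) and of summed FPKM (right) taken by the 37 mitochondrially encoded genes in each of the 6 libraries, in percent; blue bars are Chow, orange to red bars HFpEF. The Chow libraries lie between 24.0% and 26.0% of reads, and HFpEF 3 stands at 7.17%.

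Nearly all of this RNA came from the protein genes. They held 24.2% ± 1.10 of reads in Chow and 16.1% ± 8.16 in HFpEF. The rRNA genes held 0.593% ± 0.0941 and 0.468% ± 0.0875, and the tRNA genes 0.0667% ± 0.00509 and 0.0458% ± 0.0197 (SD, n = 3). As shares of reads, each class was lower in every HFpEF library than in every Chow library (exact permutation p = 0.1 for each), for rRNA only just, with 0.537% in HFpEF 2 against 0.539% in Chow 1. As shares of summed FPKM the groups overlapped for rRNA (0.888% to 1.18% in Chow, 0.858% to 0.963% in HFpEF; exact permutation p = 0.4) and for tRNA (2.09% to 2.39% and 1.08% to 2.11%; exact permutation p = 0.2). The libraries were made with an mRNA kit, so the rRNA and tRNA values describe reads assigned to those intervals and are not levels of the mature molecules.

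No mitochondrially encoded gene passed the thresholds with the adjusted p. Of the 37, 35 reached an FPKM of 0.5 in 3 or more libraries and were tested, and mt-Tf and mt-Tg were not. The study defines a differentially expressed gene by an adjusted p under 0.05 together with a log2 fold change of 2 or more in either direction. By the definition in the methods 0 of the 35 were called here, as were 0% of all 14225 genes tested in the lower direction. At the adjusted p alone 0 of 35 passed, against 0.0984% of all genes, and the lowest adjusted p among them was 0.105 (limma, mt-Tl2). At an unadjusted p under 0.05, 10 of 35 were lower in HFpEF and 0 were higher, against 13.1% of all genes lower. These 10 were mt-Co2, mt-Rnr1 and 8 tRNA genes. The 3 HFpEF libraries lay below the 3 Chow libraries for 19 of 35 genes, namely 10 of 13 protein genes, both rRNA genes and 7 of 20 tRNA genes, against 19.7% of all genes.

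The fitted direction was nonetheless nearly uniform. The log2 fold change, HFpEF over Chow, was negative for 32 of 35 genes and for all 13 protein genes, against 51.2% of all genes tested. Its median was -1.07 over the protein genes, -0.68 over the rRNA genes and -0.91 over the tRNA genes tested, against -0.01 over all genes. Much of this size came from HFpEF 3. Without it the medians were -0.42 for the protein genes, -0.42 for the rRNA genes and -0.36 for the tRNA genes, and 5 of 35 genes fell at an adjusted p under 0.05 (limma), against 5.36% of all genes tested that were lower in that fit. They were mt-Nd2 (log2 fold change -0.36, adjusted p = 0.0436), mt-Co1 (-0.46, 0.0340), mt-Co2 (-0.66, 0.0259), mt-Ty (-0.54, 0.0320) and mt-Tl2 (-0.79, 0.0207). A scaling set on the genes outside the mitochondrial genome moved the median of all genes to 0.23. The protein gene median was then -0.81, with all 13 genes still negative. Under quantile normalization it was -0.20, with mt-Nd6 at 0.29 and mt-Co1, the highest gene in each library, at 0.00.

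mt-Co1, the catalytic core of cytochrome c oxidase, was the highest of all. Its level was 70810, 76311 and 68440 FPKM in Chow and 55324, 48964 and 15374 in HFpEF. The groups did not overlap, and the fitted log2 fold change was -1.05 ± 0.55 (SE; limma adjusted p = 0.293). mt-Cytb, the cytochrome b of complex III, followed with 35028, 39493 and 34005 FPKM in Chow and 29374, 25589 and 7164 in HFpEF, again without overlap. The complex I subunit mt-Nd1 came next with 23520, 27333 and 26715 FPKM in Chow and 21124, 19026 and 6265 in HFpEF. These 3 genes made up 61.8% of the summed Chow mean of the 13 protein genes, and in each of them the libraries kept the same order of groups, with HFpEF 3 lowest.

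The remaining subunits of complex I spanned a wide range. mt-Nd2 was at 17156, 18445 and 17229 FPKM in Chow and at 14457, 13000 and 3174 in HFpEF. mt-Nd4 was at 17319, 17815 and 14922 in Chow and at 14422, 11593 and 2178 in HFpEF. mt-Nd5 was at 14867, 16283 and 13732 in Chow and at 12330, 9658 and 2778 in HFpEF. In all 3 the groups did not overlap, and HFpEF 3 held 13.1% (mt-Nd4) to 18.6% (mt-Nd5) of the Chow mean. mt-Nd6, the protein gene of the minus strand, was different in that the groups overlapped, with 9954, 8239 and 12410 FPKM in Chow and 10698, 9167 and 4302 in HFpEF. mt-Nd4l, a small membrane subunit whose end overlaps mt-Nd4, was at 2592, 2121 and 2995 FPKM in Chow and at 2076, 989 and 166 in HFpEF. mt-Nd3, another small membrane subunit, was the least even of the protein genes in Chow, at 415, 210 and 1401 FPKM, a coefficient of variation of 94.3%. It was at 325, 424 and 128 in HFpEF.

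The other complex IV subunits lay far below mt-Co1 in every library. mt-Co2, which carries the first electron acceptor of the enzyme, was at 6412, 6873 and 6851 FPKM in Chow, a coefficient of variation of 3.88%, and at 4783, 3752 and 1328 in HFpEF. It was the only protein gene with an unadjusted p under 0.05 (log2 fold change -1.22 ± 0.48, limma adjusted p = 0.201). mt-Co3 was at 8714, 7890 and 6769 FPKM in Chow and at 5676, 3376 and 357 in HFpEF. Its log2 fold change of -2.03 ± 0.98 was the most negative of the protein genes (limma adjusted p = 0.262) and was -0.82 without HFpEF 3. In HFpEF 3 it held 4.58% of the Chow mean, the lowest of the protein genes.

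For the complex V subunits, the groups overlapped in mt-Atp6 and not in mt-Atp8, and the difference between the genes was not tested. mt-Atp6, part of the proton channel, was at 4354, 6546 and 4928 FPKM in Chow and at 4909, 5386 and 755 in HFpEF. HFpEF 1 and 2 thus lay inside the Chow range and HFpEF 3 below it, and the log2 fold change of -0.94 was -0.02 without HFpEF 3. Nearly all of its sequence is also found in a nuclear copy, Gm10925, and with the reads of that copy added the groups no longer overlapped and the log2 fold change was -1.17. mt-Atp8, a short accessory subunit, was the lowest protein gene, at 156, 117 and 79.5 FPKM in Chow and at 78.6, 72.6 and 8.12 in HFpEF. Its highest HFpEF value was just below its lowest Chow value, and HFpEF 3 rested on 32 reads.

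Along the ordered levels in Chow, the first 3 genes and mt-Nd2 were separated from each other by non-overlapping libraries. Of the 14 pairs of neighbours in the order of the 15 protein and rRNA genes, 7 had overlapping ranges over the Chow libraries. These were mt-Nd2 and mt-Nd4, mt-Nd4 and mt-Nd5, mt-Nd6 and mt-Co3, mt-Co3 and mt-Co2, mt-Co2 and mt-Atp6, mt-Rnr2 and mt-Nd4l, and mt-Nd4l and mt-Rnr1. Overlapping ranges do not show equal levels, since genes of a library are measured together. In each Chow library mt-Nd4 exceeded mt-Nd5, mt-Nd6 exceeded mt-Co3, mt-Co2 exceeded mt-Atp6 and mt-Nd4l exceeded mt-Rnr1. The other pairs with overlap changed order between Chow libraries. From mt-Co1 to mt-Atp8 the Chow mean spanned 612-fold.

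**Figure D2:**
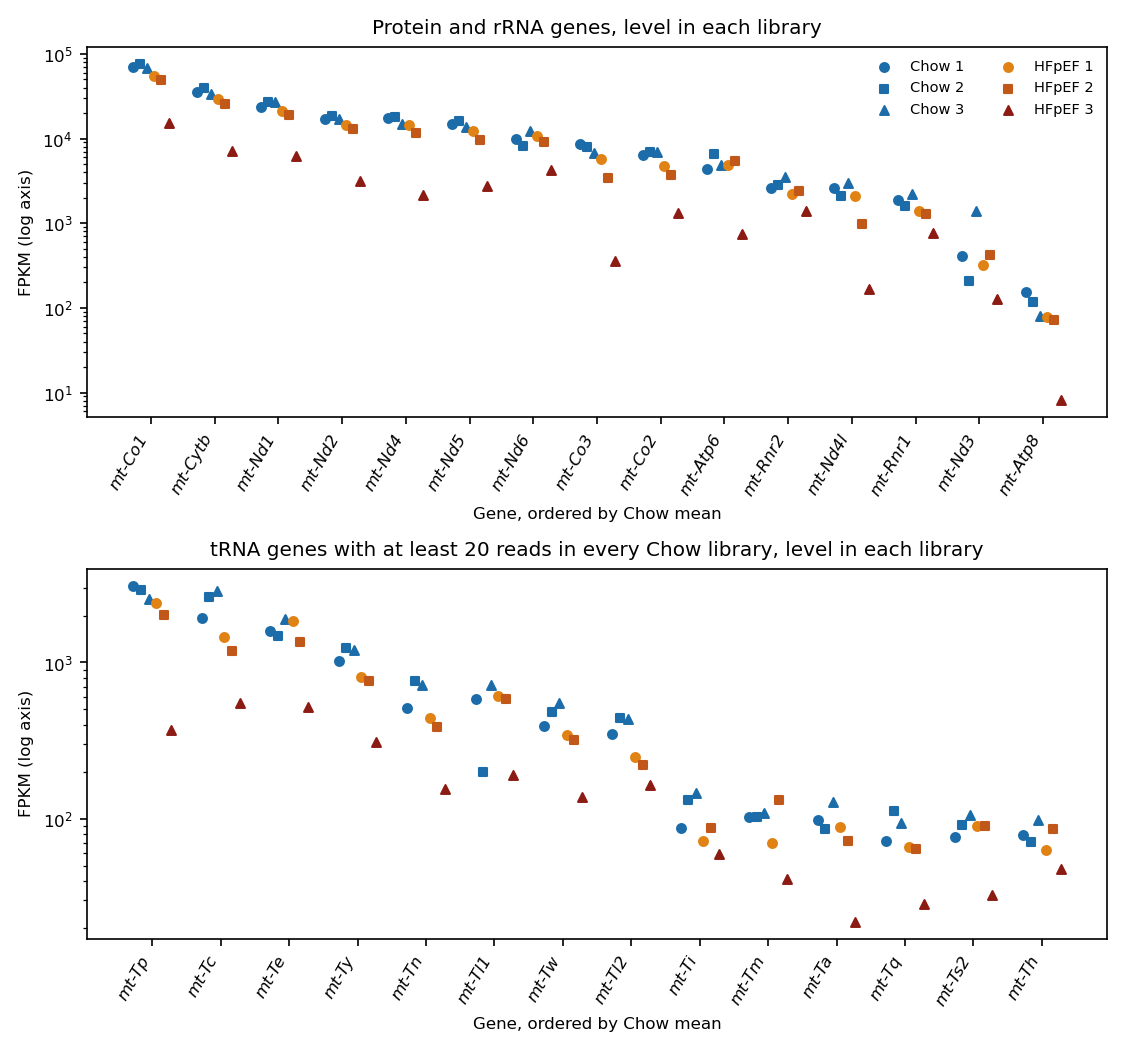
FPKM (log axis) of each gene in each library, with genes ordered by Chow mean; upper panel, the 13 protein and 2 rRNA genes; lower panel, the 14 tRNA genes with at least 20 reads in every Chow library. Blue symbols are Chow, orange to red symbols HFpEF, and HFpEF 3 (dark red triangles) is the lowest library for every gene shown.

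Both rRNA genes were lower in every HFpEF library, by less than most protein genes in HFpEF 3. mt-Rnr1, the 12S rRNA of the small ribosomal subunit (chrM:70-1024), was at 1901, 1617 and 2221 FPKM in Chow and at 1405, 1291 and 769 in HFpEF (log2 fold change -0.77 ± 0.28, limma adjusted p = 0.186). mt-Rnr2, the 16S rRNA of the large subunit (chrM:1094-2675), was at 2578, 2823 and 3524 in Chow and at 2212, 2433 and 1375 in HFpEF (-0.60 ± 0.28, adjusted p = 0.257, limma). Without HFpEF 3 the log2 fold changes were -0.49 for mt-Rnr1 and -0.35 for mt-Rnr2. HFpEF 3 kept 40.2% of the Chow mean for mt-Rnr1 and 46.2% for mt-Rnr2, against a median of 18.6% over the protein genes. The directions of both turned under quantile normalization, to 0.060 for mt-Rnr1 and 0.095 for mt-Rnr2.

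Among tRNA intervals, reads were concentrated on genes annotated on the minus strand. The strand of the reads themselves is not known. The 8 minus-strand genes held 81.2% to 85.8% of the tRNA FPKM in Chow and 82.6%, 78.6% and 72.3% in HFpEF 1 to 3, and the 4 highest tRNA genes of every library were all from that strand. These 4 decode proline, cysteine, glutamate and tyrosine, and are printed below as transcribed (minus strand of chrM, GRCm38, GENCODE), with the anticodon in capitals. The anticodon was found as the 3 letters at the centre of a 7-base loop closed by a stem of 5 base pairs, with G-T pairs allowed, and gave 1 match per gene. They lie at chrM:15356-15422 (mt-Tp), chrM:5192-5257 (mt-Tc), chrM:14071-14139 (mt-Te) and chrM:5260-5326 (mt-Ty).
mt-Tp: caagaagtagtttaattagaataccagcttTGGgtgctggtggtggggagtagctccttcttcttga
mt-Tc: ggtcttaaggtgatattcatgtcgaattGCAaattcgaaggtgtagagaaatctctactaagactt
mt-Te: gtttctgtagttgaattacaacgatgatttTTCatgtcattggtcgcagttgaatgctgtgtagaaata
mt-Ty: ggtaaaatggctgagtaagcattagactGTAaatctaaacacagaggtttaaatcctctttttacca

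mt-Tp was at 3106, 2909 and 2542 FPKM in Chow and at 2407, 2006 and 369 in HFpEF. mt-Tc was at 1926, 2644 and 2870 in Chow and at 1460, 1179 and 551 in HFpEF (log2 fold change -1.32 ± 0.39, limma adjusted p = 0.143). mt-Ty was at 1018, 1246 and 1198 in Chow and at 812, 766 and 308 in HFpEF. In these 3 the groups did not overlap, and every HFpEF library was lower. mt-Te was different, with 1598, 1478 and 1899 FPKM in Chow and 1838, 1352 and 515 in HFpEF. HFpEF 1 and 2 lay on either side of the lowest Chow value, so the groups overlapped. The leucine tRNA genes also parted. mt-Tl2 (CUN codons) was at 348, 438 and 437 FPKM in Chow and at 247, 221 and 165 in HFpEF, with the lowest adjusted p of all members. mt-Tl1 (UUR codons), which lies between mt-Rnr2 and mt-Nd1, was at 581, 198 and 720 in Chow and at 612, 588 and 189 in HFpEF, with no order of the groups.

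The other tRNA genes included 8 that were thinly read. The 8 genes with under 20 reads in some Chow library (mt-Tf, mt-Tv, mt-Ts1, mt-Td, mt-Tk, mt-Tg, mt-Tr and mt-Tt) together had 27 to 31 reads in the Chow libraries and 26, 78 and 105 in HFpEF 1 to 3. mt-Tf had 0 reads in all 6 libraries, which is 0 of 13076772 to 16027084 reads. mt-Tg had 1 read in Chow 1, 41 in HFpEF 3 and 0 in the other libraries. mt-Tr had 2, 2 and 11 reads in Chow and 1, 62 and 52 in HFpEF. Differences between groups for these genes rest on such numbers, in which libraries of 1 group disagree with each other, including that of mt-Td (2, 3 and 2 reads in Chow, 0, 3 and 0 in HFpEF), whose fitted log2 fold change was -3.17, and -2.39 without HFpEF 3.

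Relative to the Chow mean, the HFpEF libraries differed in how evenly the protein genes moved. HFpEF 1 had a median log2 ratio of -0.29 over the 13 genes, with an SD between genes of 0.19. It was -0.52 with an SD of 0.39 in HFpEF 2, and -2.43 with an SD of 0.90 in HFpEF 3. In HFpEF 1 and 2, 12 of 13 genes were below the Chow mean, the exceptions being mt-Nd6 in HFpEF 1 (0.09) and mt-Atp6 in HFpEF 2 (0.05). In HFpEF 3 the genes ran from mt-Nd6 at -1.23 to mt-Co3 at -4.44. In genome order, the lowest values of HFpEF 3 were those of mt-Atp8, mt-Co3 and mt-Nd4l, at 6.92%, 4.58% and 6.46% of the Chow mean, in the stretch between mt-Co2 and mt-Nd4, which also holds mt-Atp6 (14.3%) and mt-Nd3 (19.0%). The same stretch held the lowest value of HFpEF 2, mt-Nd4l at -1.36. Between single Chow libraries and the mean of the other 2, the SD between genes was 0.28, 0.59 and 0.71, with mt-Nd3, mt-Atp8 or mt-Atp6 at the extremes.

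**Figure D3:**
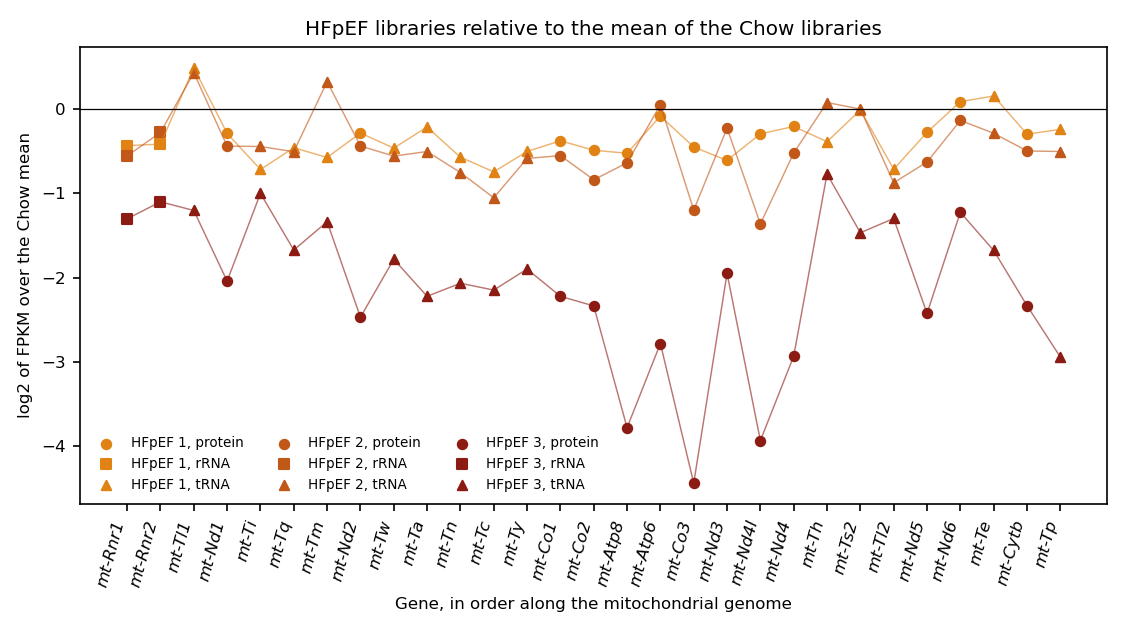
Log2 of FPKM over the Chow mean for the protein genes (circles), rRNA genes (squares) and 14 tRNA genes (triangles) of each HFpEF library, in order along the mitochondrial genome. HFpEF 1 and 2 stay near a median of -0.29 and -0.52 over the protein genes, while HFpEF 3 reaches -4.44 at mt-Co3.

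Ratios inside a library do not depend on scaling between libraries, and 15 were computed. The lowest p after Benjamini-Hochberg adjustment over the 15 exact permutation tests was 0.75. None could have come under 0.05, because the smallest p that 3 against 3 libraries allow is 0.1. mt-Nd6 over the summed FPKM of the 12 plus-strand protein genes was 0.0494, 0.0375 and 0.0627 in Chow and 0.0649, 0.0646 and 0.108 in HFpEF. All HFpEF values were higher, although HFpEF 1 and 2 only narrowly exceeded Chow 3 (log2 difference 0.66, exact permutation p = 0.1; 0.41 without HFpEF 3). As a share of the protein gene FPKM, which restates this ratio, mt-Nd6 was at 3.62% to 5.90% in Chow and 6.07% to 9.78% in HFpEF. It was the 1 gene of 13 whose share did not overlap between groups. Full separation of 3 against 3 libraries has an exact permutation p of 0.1 for a single gene, so this count is not read as a result. The shares of the other 12 overlapped, and that of mt-Co1 was 33.2% ± 0.576 in Chow and 33.0% ± 1.79 in HFpEF (SD, n = 3). Complex I over complex IV genes gave 0.999, 0.993 and 1.09 in Chow and 1.15, 1.14 and 1.11 in HFpEF. The groups were apart by a small step, and the means differed by 0.14 on the log2 scale (exact permutation p = 0.1).

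The remaining ratios among mitochondrially encoded genes overlapped between groups. The rRNA genes over the protein genes gave 0.0212, 0.0195 and 0.0273 in Chow and 0.0206, 0.0247 and 0.0488 in HFpEF, where HFpEF 3 alone left the Chow range at 2.15 times the Chow mean. The tRNA genes over the protein genes gave 0.0474, 0.0474 and 0.0553 in Chow and 0.0492, 0.0491 and 0.0614 in HFpEF (exact permutation p = 0.5). The 16S over the 12S rRNA gave 1.36, 1.75 and 1.59 in Chow and 1.57, 1.88 and 1.79 in HFpEF (exact permutation p = 0.3). mt-Co3 over mt-Co1 was 0.123, 0.103 and 0.0989 in Chow, 0.103 and 0.0689 in HFpEF 1 and 2, and 0.0232 in HFpEF 3.

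Several of these genes have near-identical copies in the nuclear genome, inserted pieces of mitochondrial DNA annotated as pseudogenes. A search of GENCODE transcripts for at least 95% identity over at least 50 bases found 11 copies. A run of 7 lies head to tail on the minus strand of chromosome 1, from chr1:24611535 (Gm28439, matching mt-Nd4) to chr1:24616197 (Gm29216, matching the end of mt-Co1), with Gm10222 (mt-Nd4l), Gm28438 (mt-Nd3), Gm28437 (mt-Co3), Gm10925 (mt-Atp6) and Gm28661 (mt-Co2) between them. The others are Gm13339, Gm13340 and Gm13341 on chromosome 2 (mt-Nd2, mt-Co1 and mt-Co2) and Gm4076 on chromosome 13 (mt-Nd5). Of the chromosome 1 copies, 5 matched without a mismatch and Gm29216 and Gm28438 with 1 each. These differences were A1066T in mt-Co1 and T3C in mt-Nd3, counted from 1 at the start of the mitochondrial gene, with the mitochondrial base first. The paired stretches show how little separates gene and copy, with the differing base in capitals and each strand as the gene reads.
mt-Co1 stretch: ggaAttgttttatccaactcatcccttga
Gm29216 stretch: ggaTttgttttatccaactcatcccttga
mt-Nd3 stretch: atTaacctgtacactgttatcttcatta
Gm28438 stretch: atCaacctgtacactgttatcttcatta

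Of all 100-base windows of a gene, the share also present unchanged in a copy was 99.9% for mt-Co3, 99.5% for mt-Co2 and mt-Atp6, 98.5% for mt-Nd4l and 97.6% for mt-Nd3. It was 60.8% for mt-Nd4, 30.8% for mt-Co1 and 3.19% for mt-Nd2, and 0 for mt-Nd1, mt-Atp8, mt-Nd5, mt-Nd6, mt-Cytb and both rRNA genes. Sequence between annotated copies was not searched, so these shares are lower limits. The 5 genes above 90% had Chow means of 675 to 7791 FPKM. The 11 copies together held 0.537% to 0.598% of reads in Chow, 0.451% and 0.425% in HFpEF 1 and 2, and 0.0755% in HFpEF 3. They took a changing share of the pooled reads of gene and copy. For mt-Nd3 and Gm28438, the copy held 48.8%, 79.6% and 20.6% of the pooled reads in Chow and 57.4%, 40.6% and 8.40% in HFpEF. Values of these 5 genes are therefore uncertain, since how the counting divided such reads is not given in the sources used here.

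Adding the reads of the copies to the gene they match narrowed the spread of some genes in Chow. The coefficient of variation went from 94.3% to 41.7% for mt-Nd3, from 21.5% to 7.55% for mt-Atp6 and from 17.0% to 8.22% for mt-Nd4l, while that of mt-Co2 went from 3.88% to 9.61%. Pooled mt-Nd3 was at 810, 1025 and 1765 FPKM in Chow and at 762, 714 and 140 in HFpEF, without overlap. Pooled mt-Atp6 was at 6750, 7828 and 7133 in Chow and at 6014, 6456 and 853 in HFpEF, also without overlap. With copies pooled, the protein gene median was -1.17, and 0 genes had an adjusted p under 0.05 (limma).

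The nuclear subunits of the same complexes also had lower values in HFpEF. Of the nuclear OXPHOS lists, 81 genes were tested in complexes I to V, all 81 had a negative log2 fold change, 75 were lower at an unadjusted p under 0.05 against 13.1% of all genes, and 0 had an adjusted p under 0.05 (limma). The median log2 fold change was -0.71 for complex I, -0.68 for complex II, -0.77 for complex III, -0.79 for complex IV and -0.67 for complex V. Without HFpEF 3 these medians were -0.53, -0.44, -0.53, -0.50 and -0.50. Cox6a2, the striated muscle form of a complex IV subunit, was at 1377, 1424 and 1324 in Chow and at 932, 1051 and 408 in HFpEF. Atp5a1, the alpha subunit of the ATP synthase, was at 1637, 1646 and 1607 in Chow and at 1115, 1187 and 857 in HFpEF. In both the groups did not overlap and HFpEF 3 was lowest. Without HFpEF 3, 63 of the 81 fell at an adjusted p under 0.05 (limma), against 5.36% of all genes.

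Mitochondrially and nuclear encoded subunits parted in HFpEF 3. Relative to Chow, HFpEF 1 had a median log2 ratio of -0.29 for the mitochondrially encoded protein genes and of -0.59 for nuclear complex I, and HFpEF 2 had -0.52 and -0.44. HFpEF 3 had -2.43 against -1.14. The 13 genes over the summed nuclear subunits of complexes I, III, IV and V gave 10.1, 10.3 and 9.34 in Chow and 12.1, 9.57 and 4.42 in HFpEF. HFpEF 1 was thus above the Chow range, HFpEF 2 inside it and HFpEF 3 below it (exact permutation p = 0.8). The log2 difference was -0.31 with all libraries and 0.12 without HFpEF 3. Complex by complex, HFpEF 3 had 0.460 times the Chow mean ratio for complex I, 0.450 for complex III, 0.489 for complex IV and 0.284 for complex V. The nuclear subunits over the cardiomyocyte markers stayed at 0.863 to 0.885 in Chow and 0.851 to 0.888 in HFpEF, with 0.859 in HFpEF 3 (exact permutation p = 0.6).

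**Figure D4:**
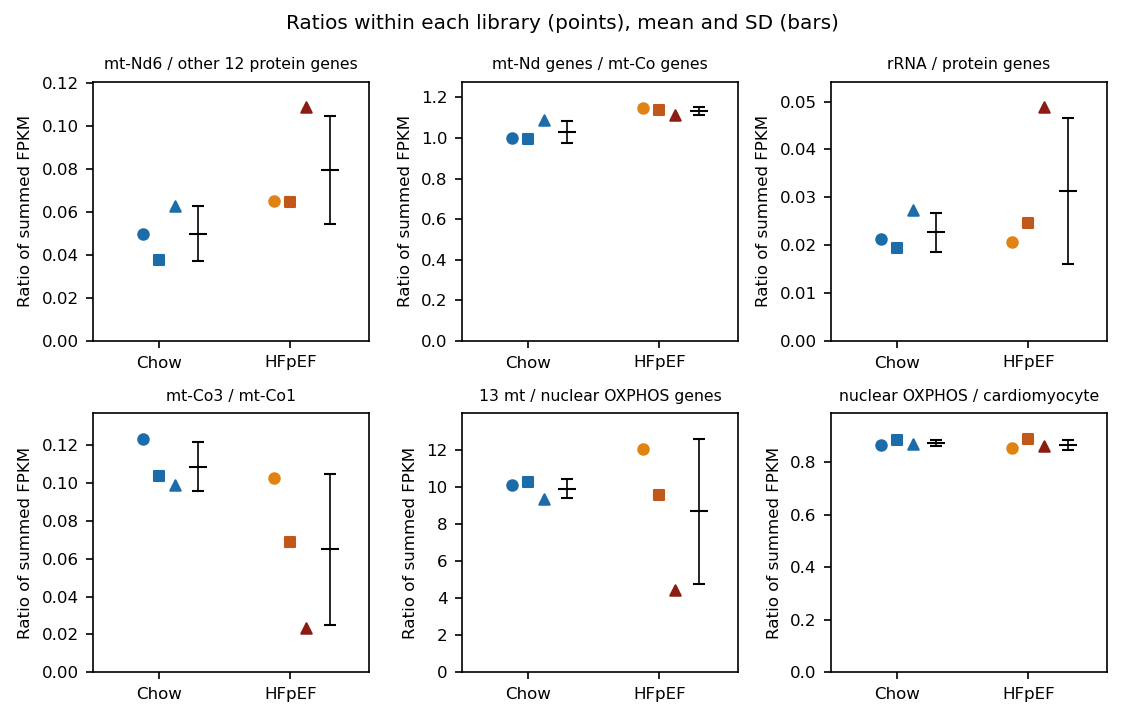
Ratios of summed FPKM within each library (points; blue Chow, orange to red HFpEF) with the group mean and SD (black bars, n = 3). HFpEF 3, the dark red triangle, stands apart for the 13 mitochondrially encoded genes over the nuclear OXPHOS genes at 4.42, and lies with the others for nuclear OXPHOS genes over cardiomyocyte markers at 0.859.

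The machinery that copies, transcribes and processes the mitochondrial genome is wholly nuclear encoded. Of 78 such genes tested in 5 lists, 71 had a negative log2 fold change, 39 were lower at an unadjusted p under 0.05 against 13.1% of all genes, 0 were higher, and 0 had an adjusted p under 0.05 (limma). The transcription list had 6 of 8 lower and a median log2 fold change of -0.43, and of -0.26 without HFpEF 3. Polrmt, the polymerase, was at 9.49, 9.15 and 10.3 FPKM in Chow and at 7.81, 8.20 and 6.09 in HFpEF. Tfam, which packages the genome and opens its promoters, was at 10.03, 11.3 and 10.5 in Chow and at 9.03, 9.20 and 7.37 in HFpEF. Tefm, the elongation factor, was at 12.5, 14.2 and 11.9 in Chow and at 8.05, 9.62 and 4.91 in HFpEF. All 3, and Tfb2m (log2 fold change -0.47, and -0.26 without HFpEF 3), had no overlap between groups.

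The mtDNA maintenance list had the median nearest to 0 of the machinery lists, at -0.15, with 1 of 11 genes lower at an unadjusted p under 0.05, a share near the 13.1% of all genes. Without HFpEF 3 the median was -0.082. That gene was Twnk, the replicative helicase, at 10.1, 9.31 and 9.89 FPKM in Chow and 7.14, 7.36 and 5.94 in HFpEF. Polg, the DNA polymerase, was at 6.86, 6.36 and 6.43 in Chow and at 6.41, 5.81 and 6.20 in HFpEF, with overlap. The single-stranded DNA binding protein gene Ssbp1 had a log2 fold change of -0.26 and an unadjusted p of 0.083 (limma). Among RNA processing and stability genes, 11 of 19 were lower against the same 13.1%, with a median of -0.45, and of -0.29 without HFpEF 3. Lrpprc, which stabilizes mitochondrial mRNAs, was at 31.4, 32.8 and 32.3 FPKM in Chow and at 24.1, 23.0 and 17.6 in HFpEF. Hsd17b10, a subunit of the mitochondrial RNase P, was at 85.5, 90.3 and 82.9 in Chow and at 58.2, 58.7 and 44.1 in HFpEF. Elac2, which trims the 3′ ends of tRNAs, had a log2 fold change of -0.42, Trmt10c of the RNase P -0.31, and the nuclease gene Pnpt1 -0.32; without HFpEF 3 these were -0.29, -0.20 and -0.20. Slirp, the partner of Lrpprc, was at 0.0275 to 0.271 FPKM in all libraries and was not tested.

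At an unadjusted p under 0.05, 8 of 19 RNA modification genes were lower (median -0.32, and -0.20 without HFpEF 3), and 13 of 21 aminoacyl-tRNA synthesis genes (median -0.39, and -0.28 without HFpEF 3), against 13.1% of all genes. Those with the smallest unadjusted p were Cdk5rap1, Mrm3 and Trmu in the first list, with log2 fold changes of -0.85, -0.70 and -0.35, and Lars2, Yars2 and Gatb in the second, with -0.46, -0.62 and -0.61. Lars2, which charges both leucine tRNAs, was at 12.1, 11.8 and 12.8 FPKM in Chow and at 8.75, 8.74 and 9.04 in HFpEF, with HFpEF 3 level with the others. Yars2, which charges the tyrosine tRNA, was at 9.79, 10.4 and 8.19 in Chow and at 6.05, 6.56 and 5.75 in HFpEF. In HFpEF 3 the median log2 ratio to the Chow mean was -0.76 for transcription, -0.22 for mtDNA maintenance and -0.71 for RNA processing, each nearer to 0 than the -2.43 of the mitochondrially encoded protein genes. Without HFpEF 3, 13 of the 78 fell at an adjusted p under 0.05 (limma), against 5.36% of all genes. Twnk, Lrpprc, Hsd17b10 and Tefm were among them.

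**Figure D5:**
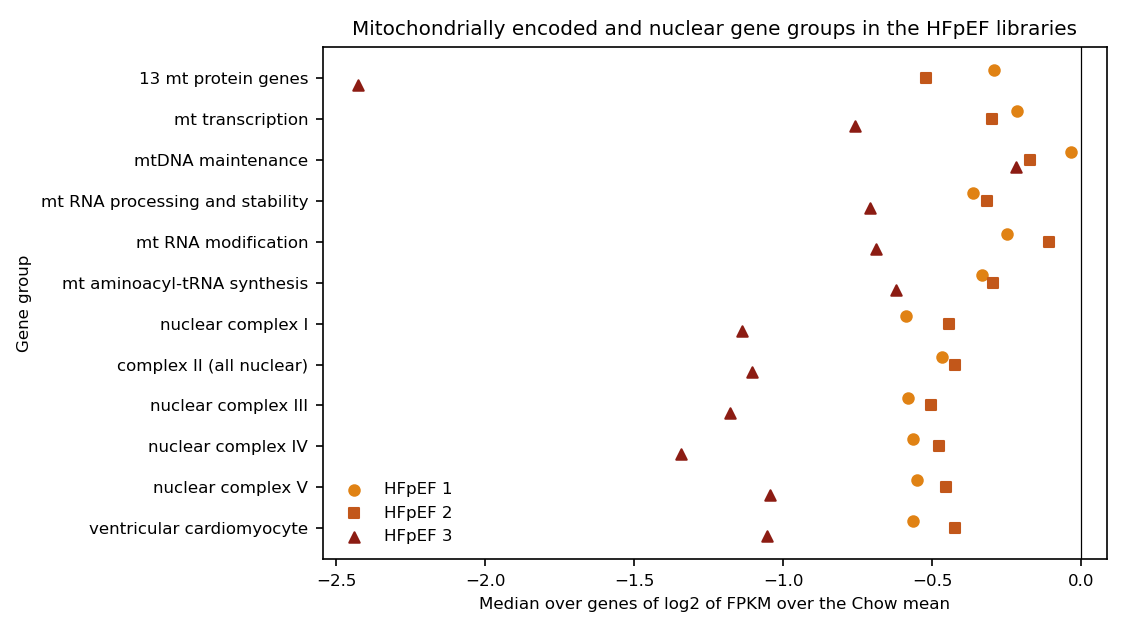
Median over genes of log2 of FPKM over the Chow mean, for the 13 mitochondrially encoded protein genes, the nuclear gene lists and the ventricular cardiomyocyte markers, in each HFpEF library. HFpEF 3 lies at -2.43 for the mitochondrially encoded genes and between -1.34 and -0.22 for the other groups.

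Cell type markers differed in which libraries were high or low, and their part in the values of the mitochondrially encoded genes was not tested. Cardiomyocyte markers were negative for 14 of 14 genes against 51.2% of all genes, and 8 were lower at an unadjusted p under 0.05 against 13.1%. Actc1, Mb and Myh6 had log2 fold changes of -0.65, -0.81 and -0.53, and of -0.46, -0.61 and -0.28 without HFpEF 3. The 13 genes over these markers gave 8.72, 9.10 and 8.11 in Chow and 10.3, 8.50 and 3.80 in HFpEF (exact permutation p = 0.8). The summed fibroblast markers were 220 to 259 FPKM in Chow, 425 and 494 in HFpEF 1 and 2, and 5522 in HFpEF 3. In HFpEF 3, Col1a1, Col3a1, Col1a2 and Postn were at 2252, 1810, 702 and 356. Col1a1 was at 24.9 to 27.2 in Chow. Lum was at 59.8, 42.6 and 182 in HFpEF 1 to 3. The other fibroblast markers differed less between HFpEF 1 to 3. Dcn was at 177, 168 and 196, Pdgfra at 11.3, 11.6 and 12.99, and Tcf21 at 9.44, 5.30 and 9.61. The size of the summed difference was thus not shared by all fibroblast markers. White adipocyte markers were 0 to 0.0183 FPKM in Chow and 28.8 to 60.1 in HFpEF, with Adipoq, Cidec, Cfd, Lep and Retn at 0 in every Chow library. Atrial markers were 13.3, 16.2 and 538 in Chow and 2305, 3834 and 20.6 in HFpEF, so HFpEF 3 was not among the libraries with high atrial markers. The summed macrophage markers were 124 to 155 in Chow and 150, 214 and 416 in HFpEF. The nuclear-retained RNAs Malat1 and Neat1 summed to 137 to 159 FPKM in Chow and to 138, 140 and 172 in HFpEF. The 2 parted, with Malat1 at 109 to 128 in Chow and at 111, 116 and 148 in HFpEF. Neat1 was at 27.5 to 30.9 in Chow and at 26.3, 24.6 and 23.9 in HFpEF.

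Among the other marker lists, HFpEF 3 was the highest library for immediate early genes and skeletal muscle markers and the lowest for brown adipocyte markers. Smooth muscle markers summed to 63.9 to 92.8 FPKM in Chow and to 512, 56.6 and 304 in HFpEF, and cartilage, tendon and valve markers to 5.86 to 8.18 and to 63.1, 15.99 and 45.8. Red blood cell genes ran from 280 to 1591 in Chow and from 478 to 1813 in HFpEF, and endothelial markers from 208 to 230 and from 169 to 182. Immediate early genes summed to 59.7 to 114 in Chow, and to 87.6, 61.7 and 166 in HFpEF. Brown adipocyte markers were at 15.4 to 19.9 in Chow and at 22.4, 24.6 and 10.3 in HFpEF. The Chow sum was Cidea alone, which was at 16.4, 16.3 and 10.3 in HFpEF. Ucp1 was at 0 in every Chow library and in HFpEF 3, and at 6.00 and 8.33 in HFpEF 1 and 2. Skeletal muscle markers were at 1.12 to 2.09 in Chow and at 1.55, 1.45 and 2.34 in HFpEF.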

How the data were processed

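RNA sequencing was performed on left ventricular myocardium of 3 Chow and 3 HFpEF mice. The authors aligned reads with HISAT2 and counted them with featureCounts, and the deposited values are FPKM per gene. The labels name GRCm38 (mm10). The FPKM formula, annotation, strand and multimapping settings are not given in the sources used here. Recovered reads, FPKM times GENCODE M21 exon length, implied denominators of 0.897 to 1.27 times the recovered totals, highest in HFpEF 3, and median-of-ratios factors between the deposited libraries were 1.003 to 1.006. Of 54532 identifiers, 54495 matched the annotation.

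For the main test, limma 3.58.1 (R 4.3.3, trend, robust) was run on log2(FPKM / median-of-ratios factor + 0.1). Fold changes are on that scale and understate low genes. Genes tested reached an FPKM of 0.5 in 3 or more libraries (14225), with Benjamini-Hochberg adjustment over all. Shares and ratios were compared by exact two-sided permutation tests on log2 values. The p-values set a group difference against the variation between these mice. Nuclear copies were searched with blastn 2.17.0 in GENCODE M21 transcripts; other nuclear sequence was not searched. The script was tested on simulated data.

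Named were all mt- genes, fixed regulators, up to 3 genes of the smallest unadjusted p or highest level per list, and nuclear copies. More than 3 were named of the fibroblast and white adipocyte markers. Members and lists were chosen with earlier results of these data known.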

Additional observations from a re-analysis of the deposited data

How the results depend on the processing

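The count of mitochondrially encoded genes past both thresholds was 0 and ranged from 0 to 1 when each library was left out; the 1 gene, without HFpEF 2, was mt-Td (log2 fold change -4.74), which rests on 0 to 3 reads a library. With the unadjusted p in place of the adjusted p the count was also 1. The count with an adjusted p under 0.05 (limma) ranged from 0 to 5, with 1 without HFpEF 2 and 5 without HFpEF 3, and the count over the machinery and OXPHOS lists from 0 to 76, the latter without HFpEF 3. With each library left out, the log2 difference ranged from -0.022 to 0.16 for the tRNA to protein gene ratio, from -0.61 to 0.12 for the mitochondrial to nuclear OXPHOS ratio and from -0.60 to 0.11 for the mitochondrial to cardiomyocyte marker ratio, and turned in each case without HFpEF 3. Of the other values of these comparisons, 141 kept their direction and side of the threshold. Single genes turned direction under quantile normalization (mt-Rnr1 0.060, mt-Rnr2 0.095, mt-Tl1 0.34, mt-Nd6 0.29, mt-Te 0.12), under scaling to the other genes (mt-Tl1 0.16), under voom on recovered reads (mt-Tk -0.20) and when 1 library was left out (mt-Tl1 -0.67 to 0.46, mt-Tk -1.33 to 1.87, mt-Tv -0.17 to 3.11, mt-Tt -2.17 to 0.71); the cause was not tested. The fit with the replicate number as a block gave 0 genes past either threshold and a protein gene median of -1.07. Same-numbered libraries did not deviate together (correlations -0.041, -0.073 and -0.057). These deviations were taken from the mean of each group of 3, so they cannot decide whether the numbers pair the mice. The complex I to complex IV ratio has no value without the genes found in a nuclear copy, since every complex IV gene has one. Leaving out only the genes with most windows shared, and pooling copies with their genes, were chosen after seeing the data. Depth limits the 8 tRNA genes with under 20 reads in a Chow library.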
